A study of Homo sapiens and Mus musculus with 18 samples.

Results

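Sorted cells of the embryonic mouse lung surface were set against cells of the heart, liver and gut surfaces, gene by gene. The mesothelium is the sheet of cells that covers the organs of the body cavities. It arises from splanchnic mesoderm, and on the lung it forms the visceral pleura and signals to the tissue beneath. Genes were taken into the comparison when they reached at least 5 CPM (counts per 1000000 scaled counts) in at least 1 of the 4 organs, which held for 13347 of 37991 mouse gene IDs. At that limit, 457 genes had their highest organ between 5 and 6 CPM and stayed in, and 552 had it between 4 and 5 CPM and stayed out.

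The 4 mouse libraries belong to a series of 18 samples that otherwise holds human cells. Lung, heart, liver and gut gave 1 library each, so nothing in the comparison carries a p-value, and "higher" and "lower" below describe 4 libraries and have no replicate check. All 4 came from Wt1creERT2/+ Rosa26tdT/+ embryos, in which tamoxifen-activated Cre, made from a knock-in at the Wt1 locus, switches on the red protein tdTomato. Pregnant dams received tamoxifen into the abdomen from E12.5, as 3 injections of 300 µl at 10 mg/ml, 24 hours apart, and the labels give harvest at E15.5 (embryonic day). The column names of the count table give E14.5 instead, and which is right was not settled here. Intact organs were digested from outside with collagenase IV and trypsin, and tdTomato+ cells were sorted. The label is inherited, so sorted cells can be descendants of cells that used Wt1 as well as mesothelium itself, and the number of embryos behind each library is not given in the sources used here.

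None of the mouse gene IDs has a symbol in the name tables used here, where 0 of 37991 matched. The label's markers were therefore not checked: Sftpc (surfactant protein C of distal lung epithelium), Hhip (an inhibitor that binds hedgehog ligands) and Tbx4 (a T-box factor of lung mesenchyme). For the same reason Wt1 and the marker genes of mesothelium, epithelium, blood, muscle and vessels were not looked up, and results are given by gene ID and by count. In sorted bulk RNA, fewer cells of a type and less RNA per cell cannot be told apart. The lung library was the shallowest, with 21541758 counts, against 31502905 in heart, 27398932 in liver and 28752101 in gut. A level of 1 CPM stood for 21.2 counts in lung, 29.9 in heart, 27.7 in liver and 30.6 in gut.

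The lung library differed little from the others across most genes. Its log2 ratio to the mean of heart, liver and gut, taken after adding 1 CPM to both, had a median of -0.04 and lay within 2-fold for 11788 genes (88.3%). At least 4-fold higher in lung were 100 genes (0.749% of those compared), and at least 4-fold lower were 404 (3.03%). The split depended on how the other organs were averaged, since 1 high organ can raise an arithmetic mean alone. Against the mean of the log2 values of the other organs, 147 genes were higher and 128 lower, so that 53.5% of genes past 4-fold were higher in place of 19.8%.

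**Figure D1:**
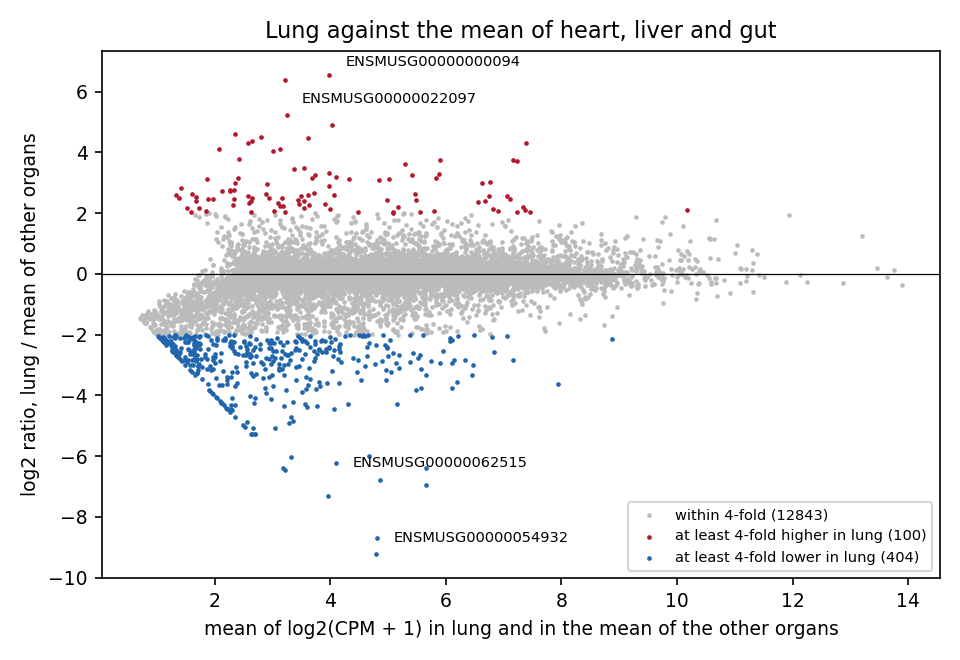
Each point is 1 of 13347 genes, with its mean level on the x axis and its log2 ratio of lung to the mean of heart, liver and gut on the y axis. Colours mark the 100 genes at least 4-fold higher and the 404 at least 4-fold lower in lung, and the 4 gene IDs described in the text are labelled.

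Gut was the organ nearest to lung and heart the farthest. Across the 13347 genes, the Spearman correlation with the lung library was 0.942 for gut, 0.922 for liver and 0.887 for heart. These correlations are across genes of single libraries and are given as descriptions. Lung and gut were also the most alike of all 6 pairs of organs, and heart and liver, at 0.878, the least. The counts of genes past 4-fold had the same order. Against gut, 153 genes were higher in lung (1.15%) and 238 lower (1.78%). Against liver, 171 were higher (1.28%) and 346 lower (2.59%). Against heart, 314 were higher (2.35%) and 533 lower (3.99%). With no averaging, lower genes thus outnumbered higher ones against each single organ as well.

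Fewer genes were at least 4-fold above the other organs in the lung library than in the library of any other organ. Against the mean of the other 3, 100 genes were at least 4-fold higher in lung, while the same measure gave 388 genes in heart (2.91%), 266 in liver (1.99%) and 165 in gut (1.24%). At least 4-fold lower than the mean of the rest were 404 genes in lung, 462 in heart (3.46%), 276 in liver (2.07%) and 361 in gut (2.7%). A stricter reading asks that an organ lie at least 4-fold above each of the other 3. It left 56 genes in lung (0.42%), 267 in heart (2%), 213 in liver (1.6%) and 93 in gut (0.697%). At least 4-fold below each of the other 3 were 11 genes in lung (0.0824%), 86 in heart (0.644%), 11 in liver (0.0824%) and 15 in gut (0.112%). Few genes were thus 4-fold lower in lung than in every other organ, and the heart library stood out in both directions.

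**Figure D2:**
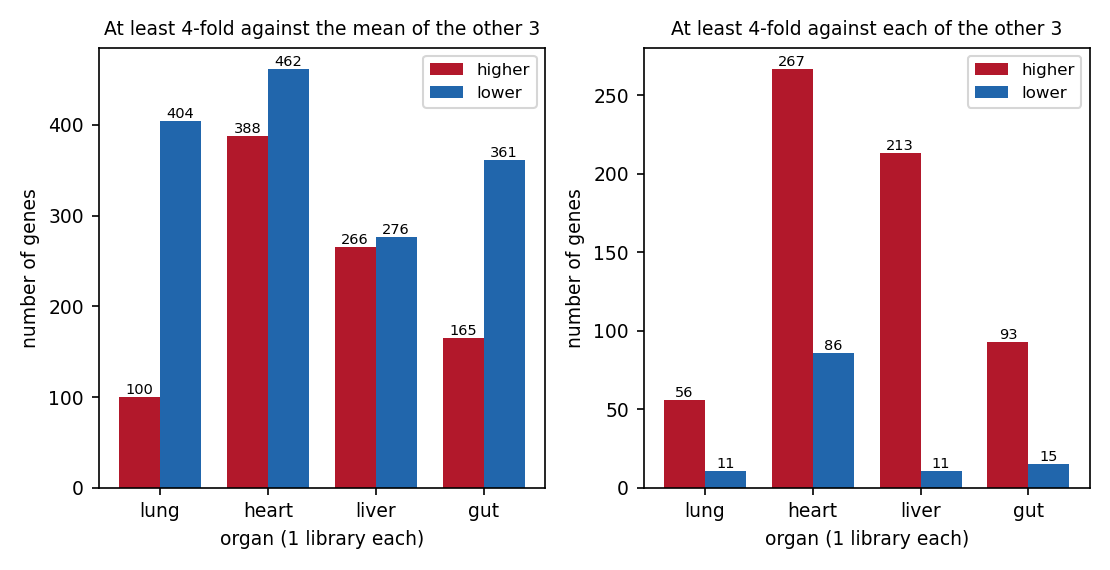
Bars give the number of genes at least 4-fold higher (red) or lower (blue) in each organ, against the mean of the other 3 organs on the left and against each of the other 3 on the right, with 1 library per organ. Lung has the lowest count of higher genes in both panels, 100 and 56.

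The 100 genes higher in lung had a median level of 32.3 CPM there, with a range of 5.10 to 2374 CPM. Their medians were 1.29 CPM in heart, 2.95 CPM in liver and 2.91 CPM in gut. Their summed CPM in lung was 1.14% of 1000000, and 26 of them reached 100 CPM. In 14 of them heart, liver and gut were all under 1 CPM, and for none were all 3 at 0 counts. The other organs varied on this point. In liver, 140 of 266 higher genes were under 1 CPM in lung, heart and gut alike, and 8 had 0 counts in all 3. In gut, 36 of 165 higher genes were under 1 CPM in all other organs and 4 had 0 counts there. In heart the same counts were 43 of 388 and 0.

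Of the 100, 56 were at least 4-fold above all 3 other organs, 37 above 2 of them and 7 above 1 only. The next highest organ was gut for 41 genes, liver for 37 and heart for 22. None of the 100 lacked counts in all 3 other organs. How often each organ came next to lung over all genes compared was not counted, so this order is not read as a trait of the 100.

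The gene ID with the highest log2 ratio to the mean of the other organs was ENSMUSG00000000094. It had 152 CPM in lung, with a 95% Poisson counting interval of 147 to 157 CPM, against 0.234 CPM in heart, 1.01 CPM in liver and 0.621 CPM in gut. That is 3211 counts in lung and 54 in the other 3 libraries together. The ratio of pooled scaled counts was 248, with a 95% counting interval of 189 to 330, and the log2 ratio with 1 CPM added was 6.56. All 3 other organs were near the floor, and the log2 ratio was 6.95 against heart, 6.25 against liver and 6.56 against gut.

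The next was ENSMUSG00000022097, with 83.6 CPM in lung (counting interval 79.7 to 87.6 CPM). It had 0 counts in heart, 1 in liver and 1 in gut, against 1769 in lung. With only 2 counts in the other organs, the pooled ratio of 3683 has a counting interval of 1018 to 30434. Its log2 ratio with 1 CPM added was 6.37, so the pseudocount hides much of this gene's distance. With 0.5 CPM added the order of these IDs reversed, at 7.33 against 7.08 for ENSMUSG00000000094. The counting intervals cover counting error in these libraries only.

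**Figure D3:**
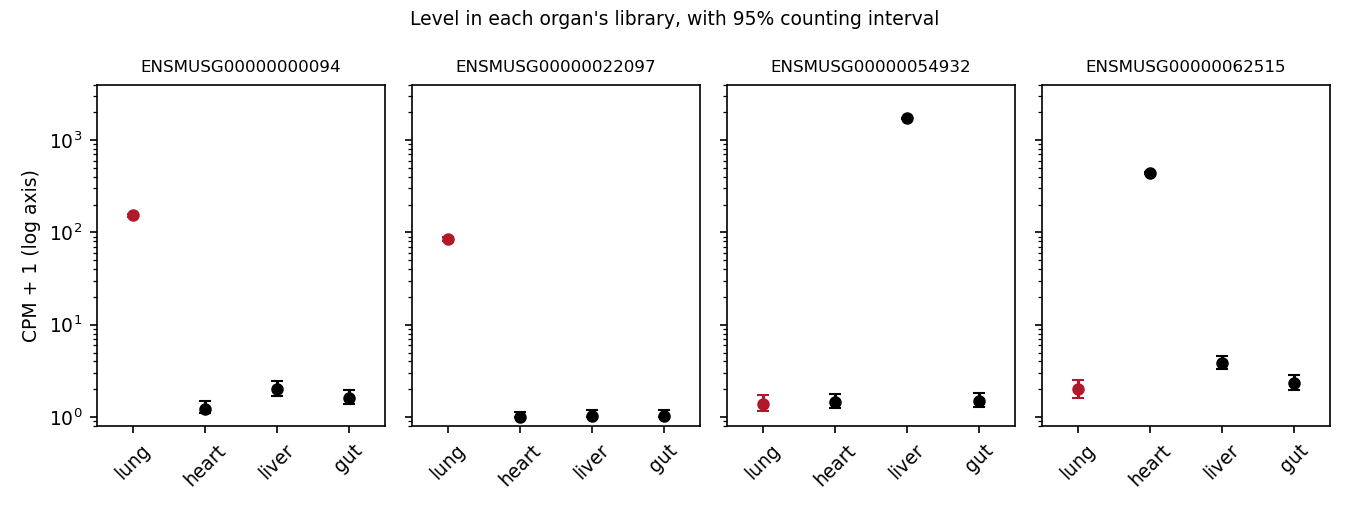
Each panel shows 1 gene ID, with CPM + 1 on a log axis for the lung (red), heart, liver and gut libraries and bars for the 95% Poisson counting interval. The first 2 IDs are high in lung alone, the third in liver alone and the fourth in heart alone.

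A single high organ is enough to put lung 4-fold below an arithmetic mean, while a gene 4-fold above it in lung exceeds every organ, so the lists of higher and lower genes differ in makeup by construction. The median of the 404 genes lower in lung was 1.13 CPM in lung, against 14.0 CPM in heart, 12.55 CPM in liver and 3.35 CPM in gut. The organ with the highest level was heart for 186 of them (46.0%), liver for 159 (39.4%) and gut for 59 (14.6%). Over all genes compared, heart was highest for 30.3%, liver for 26.8%, gut for 20.9% and lung for 22.0%. Lung cannot be the highest organ in the 404, so those shares are spread over fewer organs. Only 11 were at least 4-fold below all 3 other organs. A further 92 were that far below 2 of them and 301 below 1 only. The lower lists of the other organs were likewise mostly 4-fold below 1 organ only, with 250 of 462 genes in heart, 204 of 276 in liver and 276 of 361 in gut. In 192 of the 404 the lung level was under 1 CPM, and the others were at 1 CPM or more. Since the 404 were picked for a low lung ratio, low levels there follow in part from the selection. The share of all genes compared that lay under 1 CPM in lung was not counted. The upper quartile of the 404 in lung was 3.88 CPM. Only 1 gene of the 404 reached 100 CPM there, at 221 CPM.

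**Figure D4:**
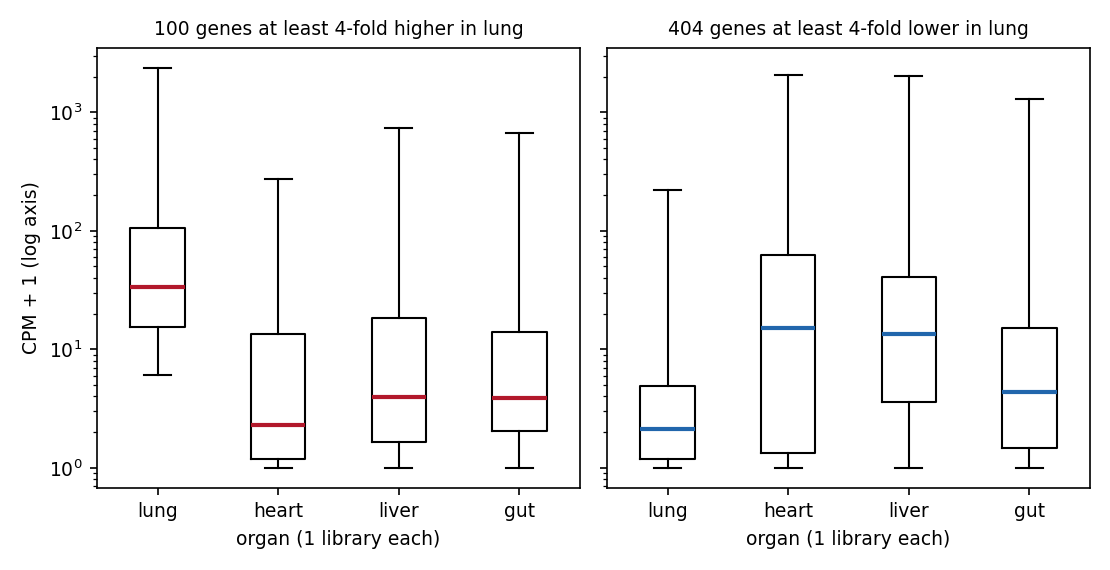
Boxes show the quartiles and median, and whiskers the full range, of CPM + 1 on a log axis in the lung, heart, liver and gut libraries, for the 100 genes at least 4-fold higher in lung and the 404 at least 4-fold lower. The medians of the higher genes are 1.29 to 2.95 CPM in the other organs, while the lower genes have their higher medians in heart and liver.

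The ratio was lowest, among genes with lung outside the range of the other organs, for a pair of gene IDs that are both of this kind. ENSMUSG00000054932 had 0.378 CPM in lung (8 counts), against 0.469 CPM in heart, 1713 CPM in liver and 0.490 CPM in gut. Its log2 ratio was -8.70 to the mean of the other organs and -10.28 to liver, but -0.09 to heart and -0.11 to gut, where the counting intervals of the levels overlap. ENSMUSG00000062515 had 0.992 CPM in lung (21 counts), against 437 CPM in heart, 2.89 CPM in liver and 1.34 CPM in gut. Its log2 ratio was -6.22 to the mean of the other organs, -7.78 to heart, -0.97 to liver and -0.23 to gut. The counting intervals of lung (0.614 to 1.52 CPM) and gut (0.962 to 1.82 CPM) overlap for this ID. Neither ID sets lung apart from more than 1 organ by 4-fold.

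Few genes split the organs into pairs. Lung and gut were both at least 4-fold above heart and liver for 11 genes (0.0824%), lung and heart above liver and gut for 8 (0.0599%), and lung and liver above heart and gut for 5 (0.0375%). The opposite pattern, with lung on the low side, was seen for 30 genes high in heart and liver and low in lung and gut (0.225%). It held for 25 genes high in liver and gut and low in lung and heart (0.187%), and for 11 high in heart and gut and low in lung and liver (0.0824%). Of the pairings with lung, the one with gut thus had the highest count on both sides, as genes high together and as genes low together. On the high side the counts were small and close. With a pseudocount of 3 CPM they were 5 with gut, 4 with heart and 1 with liver.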

How the data were processed

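RNA from sorted mouse cells was sequenced after poly-A enrichment, per the labels' protocols, which give 50 and 75 base paired reads without saying which applied here. The deposited values are whole-number counts per mouse Ensembl gene ID. The submitters' processing notes name TopHat2 2.0.13, Bowtie2 2.2.9, Subread 1.4.2 and featureCounts, with no roles, and the build hg19. For the mouse build, the annotation and the strand setting, no statement was found in the labels or file headers. Columns were matched to organs by the organ in their names.

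Counts were scaled to CPM with TMM effective library sizes (edgeR 4.0.16, R 4.3.3), whose factors were 0.982 for lung, 0.948 for heart, 1.01 for liver and 1.06 for gut. The log2 ratio used a pseudocount of 1 CPM and a 4-fold threshold. Counting intervals are 95% exact (Poisson for a level, binomial for a pooled ratio) and cover counting error only. With 1 library per organ no test was run. The members, rules and lists were chosen with earlier results of these data known. The rule for naming takes, where no symbols are given, the 2 highest and 2 lowest log2 ratios among genes of at least 10 CPM in lung or in the mean of the others, with lung outside the range of the other organs. The planned mouse gene lists need symbols and were not run. DESeq2 1.42.0 size factors, other pseudocounts, filters and reference organs were tried as alternatives. Figures were drawn with matplotlib 3.10.9.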

Additional observations from a re-analysis of the deposited data

How the results depend on the processing

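No paired analysis was possible because each mouse organ has 1 library. Scaling by library totals or DESeq2 size factors, no filter, or a filter of 1 CPM kept every count against the mean or against 1 organ within 1.5 times, and shifted the median log2 ratio by at most 0.04. A filter of 20 CPM left 9344 genes in place of 13347, so its counts are out of a smaller set. Of these, 65 were higher in lung against the mean. Lung had 209 higher than heart, 113 higher and 187 lower than liver, and 125 lower than gut. Against the other 3, liver had 132 higher and gut 79 higher. With a pseudocount of 3 CPM, lung had 60 higher and 202 lower; against single organs it had 195 higher than heart, 107 higher and 220 lower than liver, and 100 higher and 130 lower than gut. Against the other 3, heart then had 226 lower, liver 161 higher and 152 lower, and gut 97 higher and 206 lower. With the mean of log2 values, lower genes numbered 128 in lung, 258 in heart, 92 in liver and 130 in gut. With the nearest organ as reference, lung had 56 higher and 11 lower, heart 86 lower, liver 11 lower, and gut 93 higher and 15 lower.

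Leaving out heart, liver or gut in turn gave 102 to 151 genes higher in lung and 310 to 497 lower. The count of 151 arose without gut and held 93 of the 100. The lower genes shared with the 404 numbered 229 without heart, 267 without liver and 349 without gut. The Spearman correlation with lung was 0.824 for heart with a filter of 20 CPM. With no filter it was 0.954 for heart and 0.954 for liver, nearly tied, and 0.966 for gut. Counts for pairs of organs were small, and all 6 moved by over 1.5 times with a pseudocount of 3 CPM, where lung and gut were above heart and liver for 5 genes. The rule that named the 4 IDs fixes their sign. With the mean of log2 values, the log2 ratio was -3.50 for ENSMUSG00000054932 and -2.99 for ENSMUSG00000062515. The planned totals without mitochondrial and haemoglobin genes were not run, since they need symbols. A level of 1 CPM rests on fewer counts in lung than elsewhere, and equal depth was not tried.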
